A study of Mus musculus with 8 samples.

Results

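The hair genes described here are 32 genes picked by name: 21 keratins of the hair shaft, the inner root sheath and the companion layer, 5 hair transcription factors (*Hoxc13*, *Foxn1*, *Msx2*, *Dlx3* and *Foxe1*), 3 signal and shaft genes (*Shh*, *Crym* and *Selenbp1*) and 3 stem and progenitor genes (*Lgr5*, *Sox9* and *Lhx2*). They were found by symbol among the 55416 genes of the deposited table, by a rule that uses no measured value. The genes and the tests were still chosen with earlier results of these data known. RNA was sequenced from dorsal epidermis of mice at postnatal day 4 in 8 libraries. The 4 RoraEKO libraries came from mice made by crossing *Rora* flox/flox animals with a K14-Cre strain, in which the keratin 14 promoter drives the recombinase in keratinocytes of the epidermis and its appendages. The 4 control libraries are labelled as wild type, and the labels do not say whether their mice carried the floxed alleles or the Cre. Title letters A, B and C also divide the libraries: control replicate A1 and RoraEKO replicate A3, control replicate B1 and RoraEKO replicate B4, and control replicates C1 and C6 with RoraEKO replicates C2 and C3. The labels do not say what the letter stands for, nor whether each library is 1 mouse, so p-values measure the spread between libraries.

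A hair grows from matrix cells at the base of the follicle, which give rise to concentric layers: the shaft with its medulla, cortex and cuticle, then the inner root sheath, then the companion layer. Keratins are filament proteins that assemble as pairs of 1 type I and 1 type II chain, and each layer of the follicle uses its own set, the inner root sheath *Krt25* to *Krt28* with *Krt71* to *Krt73*, the companion layer *Krt75* and the shaft the cysteine-rich hair keratins. In mouse back skin the first hairs are still growing during the first postnatal days, and peeling the epidermis brings part of the follicles with it.

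The 21 keratin genes lie in the 2 keratin clusters of the mouse genome (GRCm39 with GENCODE M39 gene models). The 11 type I genes lie on chromosome 11 between 99206342 and 99996471 and the 10 type II genes on chromosome 15 between 101356942 and 101710802. Several are close copies. In their longest annotated transcripts, *Krt81* was 95.1% identical to *Krt86* over 1395 aligned bases, *Krt83* was 95.1% identical to *Krt81* over 1383, and *Krt34* was 95.1% identical to *Krt33a* over 1123. How RSEM divided reads among such copies is not known here, so single values of *Krt31*, *Krt33a*, *Krt33b*, *Krt34*, *Krt81*, *Krt83* and *Krt86* are less certain than their sums.

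The 100 bases before the annotated start are shown for 1 keratin of each class, to let the start regions of inner root sheath and hair keratins be compared by eye. RefSeq's promoter table (GRCm38.p6) held 19 of the 32 genes. *Krt27* and *Krt71* are the highest-expressed inner root sheath keratins of type I and type II. The highest hair keratins, *Krt33a* and *Krt83*, had no entry, and *Krt34* and *Krt84* were taken in their place as the highest with one. All 4 lie on the minus strand: *Krt27* at chr11:99351119-99351218, *Krt71* at chr15:101743098-101743197, *Krt34* at chr11:100041555-100041654 and *Krt84* at chr15:101532821-101532920. Capitals mark TATAAA, the core letters of a TATA box, which helps to set the start of transcription at many strongly used genes.
Krt27: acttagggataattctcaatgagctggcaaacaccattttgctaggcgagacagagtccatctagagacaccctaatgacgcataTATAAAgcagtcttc
Krt71: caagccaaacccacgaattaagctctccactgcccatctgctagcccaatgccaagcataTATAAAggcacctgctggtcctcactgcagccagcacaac
Krt34: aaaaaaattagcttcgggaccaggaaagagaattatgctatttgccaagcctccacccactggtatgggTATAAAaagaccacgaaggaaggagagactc
Krt84: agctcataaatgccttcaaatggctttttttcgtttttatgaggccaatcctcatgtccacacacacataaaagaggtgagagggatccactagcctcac

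TATAAA began 15 bases before the start in *Krt27*, 40 in *Krt71* and 31 in *Krt34*, and these 100 bases of *Krt84* did not hold it. Over the whole 300-base windows and both strands, TATAAA was present for 12 of the 15 keratins in the table and for 13 of the 19 genes in all, against 13.6% of all 32851 promoters. AGGTCA, the half-site read by ROR receptors, was in none of the 19, against 16.3% of all promoters. CTTTGAA, a core motif of LEF1, was in *Krt28*, *Krt31*, *Krt32*, *Krt33b* and *Krt34*, against 5.14% of all promoters. These are matches of letters only, and none of the 3 motifs contains another.

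Each library held between 17286903 and 26705533 counts. Levels are counts per 1000000 (CPM) after TMM scaling, and differences are on the log2 scale. A gene was called when its adjusted p was under 0.05 and its fold change over 1.5, by edgeR's quasi-likelihood test with Benjamini-Hochberg adjustment over 13147 genes. Of the 32 genes, 30 were tested. *Foxe1*, a forkhead factor of hair and thyroid, had at most 6 counts in any library, and *Lgr5*, a receptor that marks follicle stem cells, had at most 3 counts, and neither passed the filter on low counts. *Rora*, the deleted gene, was at 157.7 to 308.7 CPM in the control libraries and at 153.7 to 236.8 CPM in the RoraEKO libraries, which overlap. That value sums reads over the whole gene, and the deleted part was not examined on its own, so it does not check the genotype labels. *Xist*, expressed from the inactive X chromosome, marked 2 libraries, both controls of letter C, with 415.8 CPM in C1 and 527.4 CPM in C6. Its highest value elsewhere was 0.0547 CPM. *Ddx3y*, on the Y chromosome, was at 0 in those 2 and at 15.7 to 24.1 CPM in the rest. *Krt14* and *Krt5*, the keratins of the basal epidermis, were at 61.1 to 705.7 and 63.4 to 371 CPM, far below the suprabasal *Krt1* at 19690 to 52400 CPM.

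No hair gene was called by genotype, 0 of 30 against 5.51% of all 13147 genes. An unadjusted p under 0.05 in that test was found for 0 of the 30, against 2390 of all 13147. DESeq2 and edgeR's likelihood ratio test also called 0. Of the 30, 16 were lower and 14 higher in RoraEKO libraries, with a median log2 difference of -0.02 against -0.04 over all genes. The differences ran from -1.50 (*Krt82*) to 0.54 (*Krt86*), their standard errors from 0.33 to 1.13, and the adjusted p from 0.394 to 0.999. For none of them did the 4 RoraEKO libraries lie apart from the 4 controls, as they did for 1701 of all 13147 genes. An adjusted p above the threshold does not show that the genotypes were alike.

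Per kilobase of merged exon, the scale on which genes can be compared, the inner root sheath keratins *Krt71* and *Krt27* had the highest mean levels of all 32 genes, at 3678 and 2229 CPM per kilobase. *Krt25* followed at 1154, *Krt83* at 693.8, *Krt33a* at 574.3, *Krt81* at 534.5, *Krt34* at 460.3 and *Krt86* at 454.0 CPM per kilobase. *Krt83*, *Krt33a*, *Krt81*, *Krt34* and *Krt86*, all hair keratins, lay closer to each other than the spread of each between libraries, with *Krt83* alone running from 299.5 to 1336 CPM per kilobase. *Krt35* was the lowest keratin at 10.03 CPM per kilobase. *Dlx3* led the transcription factors at 112.2, ahead of *Foxn1* at 22.7, *Msx2* at 14.5 and *Hoxc13* at 13.1. *Crym*, a thyroid hormone binding protein of the follicle, was at 53.7 CPM per kilobase, while *Shh* at 0.805 and *Lhx2* at 0.409 were the lowest of the tested genes on this scale.

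**Figure D1:**
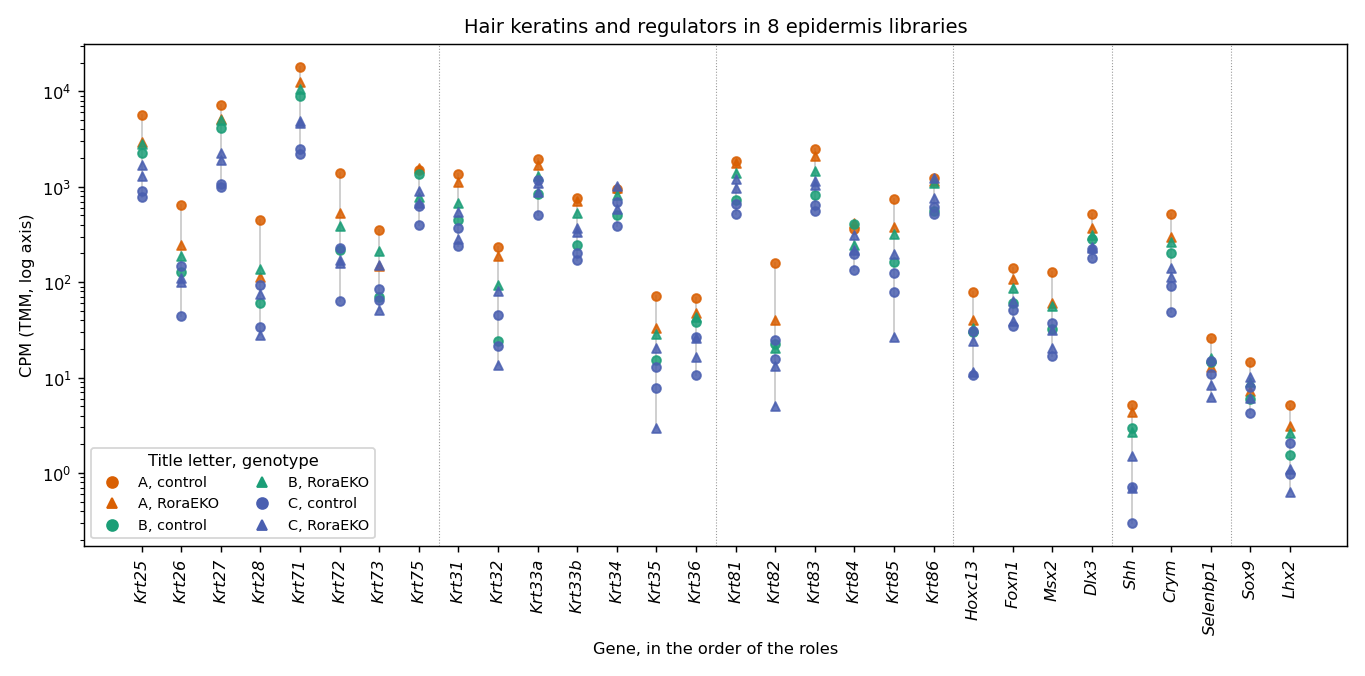
CPM of the 30 tested hair genes in each of the 8 libraries, on a log axis, with genes in the order of their roles. Points are single libraries coloured by title letter and shaped by genotype, and the grey line spans the lowest to the highest. Control replicate A1 is the highest library for 27 of the 30 genes and the lowest is a letter C library for all 30.

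The plot of CPM by library shows where the spread lies. Control replicate A1 had the highest value for 27 of the 30 genes. The lowest value of every tested gene was in a letter C library, control replicate C6 for 21, RoraEKO replicate C2 for 8 and control replicate C1 for 1. The highest library exceeded the lowest by a median of 7.07-fold over the 30 genes, against 1.96-fold over all genes tested, and by 2.36-fold (*Krt86*) to 31.8-fold (*Krt82*). The 21 keratins together took 4.71% of all counts in control replicate A1 and 0.77% in control replicate C6, both labelled control.

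The inner root sheath and companion layer keratins came first in level. *Krt71*, the main type II keratin of the inner root sheath, was at 18070 CPM in A1, 8978 in B1, 2512 in C1 and 2179 in C6 among the controls, and at 12530 in A3, 10550 in B4, 4662 in C2 and 4834 in C3 among the RoraEKO libraries. All 4 letter C libraries lay below all 4 letter A and B libraries, while the genotypes overlapped. *Krt27*, its type I counterpart in the same layers, was at 7117, 4137, 1063 and 988.5 CPM in controls A1, B1, C1 and C6 and at 5169, 5055, 2232 and 1883 CPM in RoraEKO A3, B4, C2 and C3. *Krt25*, another type I keratin of the inner root sheath, was at 5710, 2272, 895.6 and 777.7 CPM in the same controls and at 2918, 2806, 1285 and 1695 CPM in the same RoraEKO libraries. For both genes letter C was again wholly below letters A and B.

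The other inner root sheath keratins were lower and less regular. *Krt72*, a type II keratin of the inner root sheath cuticle, was at 1407 CPM in A1 and at 63.3 CPM in C6, with the other 6 libraries between 159.6 and 536.8 CPM. *Krt28*, *Krt26* and *Krt73* likewise had A1 as the highest library, at 3.29, 2.63 and 1.68 times the next library. In *Krt75*, the type II keratin of the companion layer, A3 was the highest at 1581 CPM and C6 the lowest at 398, and A1 at 1511 and B1 at 1347 CPM were close to A3. By genotype, *Krt28* differed most in this group, at 159 ± 194 CPM in control and 88.1 ± 47.5 CPM in RoraEKO libraries (SD, n = 4 each), with a log2 difference of -0.85, a standard error of 0.946 and an adjusted p of 0.653 in edgeR's quasi-likelihood test. The 8 genes had a median log2 difference of -0.09 by genotype.

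The type I hair keratins were led by *Krt33a*, a keratin of the shaft cortex, at 1970, 844.4, 1188 and 501.8 CPM in controls A1, B1, C1 and C6 and at 1707, 1299, 1081 and 886.4 CPM in RoraEKO A3, B4, C2 and C3. Letter C and letters A and B overlapped for this gene. *Krt31*, also of the cortex, was at 1364, 445, 372.7 and 238.7 CPM in the controls and at 1110, 671, 285.1 and 546.7 CPM in the RoraEKO libraries. *Krt33b* was at 762.8, 243.1, 201.1 and 172.4 CPM and at 707, 526.9, 334.3 and 369.1 CPM in the same order. In both, A1 and A3 stood above the other 6 libraries.

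*Krt34* was the steadiest of the type I hair keratins, at 383.3 to 948.5 CPM in controls and 590.1 to 1025 CPM in RoraEKO libraries, and the only tested gene whose highest value was in a letter C library, RoraEKO replicate C2. *Krt36* was at 10.7 to 68.6 CPM over the 8 libraries, with letter C wholly below letters A and B. *Krt32*, a cuticle keratin of the shaft, was at 236.3 CPM in A1, 189 in A3 and 13.5 CPM in C2. *Krt35*, expressed early in the matrix and cuticle of the shaft, was at 71.3 CPM in A1 and 2.99 CPM, or 62 counts, in C2. By genotype, 2 of the 7 type I hair keratins were lower and the median log2 difference was 0.14.

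Of the type II hair keratins, *Krt83* was at 2464, 813, 636.5 and 552.2 CPM in controls A1, B1, C1 and C6 and at 2116, 1449, 1048 and 1156 CPM in RoraEKO A3, B4, C2 and C3. *Krt81* was at 1876, 729.4, 666.3 and 514.2 CPM and at 1784, 1388, 1208 and 976.4 CPM in the same order. *Krt86* was at 1226, 555.2, 616.2 and 519.9 CPM and at 1155, 1098, 1224 and 753.5 CPM. In these 3 close copies, which pair with type I keratins in the cortex, control A1 was as high as the highest RoraEKO library or higher, and the other 3 controls were below all 4 RoraEKO libraries.

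*Krt82*, a type II keratin of the shaft cuticle, was at 159.3 CPM in A1, 22.4 in B1, 24.7 in C1 and 15.7 in C6 among controls, and at 40.4 in A3, 20.5 in B4, 5.01 in C2 and 13.3 CPM in C3. Its genotype difference was the largest of the 30 genes in size, at a log2 difference of -1.50, yet A1 alone set the control mean of 55.5 ± 69.3 CPM (SD, n = 4), and the adjusted p was 0.394 in edgeR's quasi-likelihood test. Without A1 the log2 difference was -0.08. *Krt85*, a type II keratin of the matrix and early shaft, was at 746.2, 163.6, 123.4 and 78.3 CPM in controls and at 376.2, 317.3, 26.6 and 198.3 CPM in RoraEKO A3, B4, C2 and C3. *Krt84*, a type II keratin that is also made in tongue papillae, was at 135.4 to 361.4 CPM in letter A and C controls, 410.7 CPM in B1 and 217.1 to 413.4 CPM in RoraEKO libraries.

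The call by genotype turned on control replicate A1. Without it 28 of the 30 genes were higher in RoraEKO libraries, with a median log2 difference of 0.70 against -0.02 over all genes (26 and 0.43 with the title letter as a block, 18 and 0.34 with *Xist* as a covariate), and 4 hair keratins were called higher, against 2.9% of all genes called in that direction. *Krt33b* then differed by 1.24 (adjusted p = 0.0286), *Krt81* by 1.07 (adjusted p = 0.0291), *Krt83* by 1.11 (adjusted p = 0.0426) and *Krt86* by 0.91 (adjusted p = 0.0273), all on the log2 scale in edgeR's quasi-likelihood test with 3 controls against 4 RoraEKO libraries. The remaining 3 controls of *Krt86* were at 564 ± 48.7 CPM (SD). All 4 have a close copy among the hair genes, *Krt33b* being 93.1% identical to *Krt33a* over 1248 aligned bases. Without A1 the letters are no longer balanced, with 2 of 3 controls but 2 of 4 RoraEKO libraries in letter C, and the same 2 controls are those with *Xist*. Fits added after these values were seen, still without A1, called 3 of the 30 with the title letter as a block (*Krt33b*, *Krt81* and *Krt83*, with *Krt86* at an adjusted p of 0.0525 in edgeR's test), against 7.41% of all genes, and 0 with *Xist* as a covariate. In the fit with *Xist* the log2 differences were 0.98 for *Krt33b*, 0.86 for *Krt81*, 0.82 for *Krt83* and 0.92 for *Krt86*, and 0.922% of all genes were called. With all 8 libraries and *Xist* as a covariate, *Krt33b* was at -0.06 and *Krt83* at -0.19. Leaving out any of the other 7 libraries gave 0 calls.

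Within a title letter the genotypes differed in opposite directions. In letter A, 27 of the 30 genes were lower in RoraEKO replicate A3 than in control replicate A1, with a median log2 ratio of -0.53. In letter B, 26 were higher in RoraEKO replicate B4 than in control replicate B1, with a median of 0.59. In letter C, 24 were higher in the mean of the RoraEKO libraries than in that of the controls, with a median of 0.43, and in 11 genes both RoraEKO libraries lay above both controls, which was so for 22.2% of all genes. In *Krt82* and *Selenbp1* both lay below, as for 25.1% of all genes. The letter C controls are also the 2 libraries with *Xist*, so genotype and *Xist* cannot be told apart within letter C. Each of the letters A and B has 1 library of each genotype, and their ratios have no replicate check.

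The genotype difference in letter C was tested against that in letters A and B together, as an interaction. Letters A and B went in opposite directions and are averaged in this test. It therefore does not address letter A against letters B and C. No hair gene passed (0 of 30 at an adjusted p under 0.05, against 0.0152% of all genes). An unadjusted p under 0.05 was found for 2 of the 30, *Krt27* and *Krt71*, against 203 of all 13147 genes. DESeq2 also called 0.

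**Figure D2:**
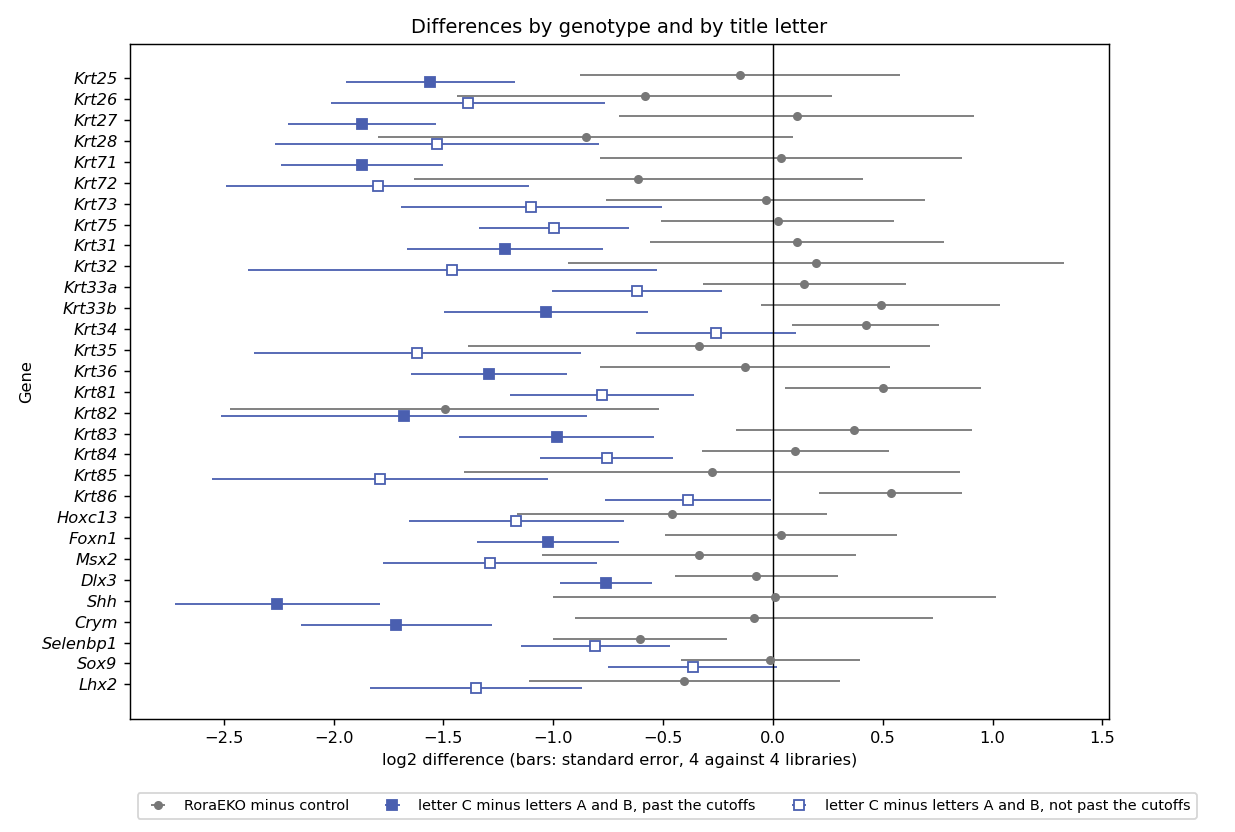
Log2 difference of each tested hair gene by genotype (grey circles, RoraEKO minus control) and by title letter (blue squares, letter C minus letters A and B, filled where past the cutoffs), with bars of 1 standard error between libraries. Genotype differences lie on both sides of 0 with none past the cutoffs, and all 30 letter differences lie below 0 with 12 past the cutoffs.

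By title letter, all 30 tested genes were lower in letter C than in letters A and B, with a median log2 difference of -1.25 against 0.02 over all genes. Past the cutoffs were 12 of 30, against 2.4% of all genes: *Krt25*, *Krt27* and *Krt71* of the inner root sheath, *Krt31*, *Krt33b*, *Krt36*, *Krt82* and *Krt83* of the shaft, the transcription factors *Foxn1* and *Dlx3*, and *Shh* and *Crym*. For 7 of the 30, *Krt25*, *Krt27*, *Krt71*, *Krt36*, *Dlx3*, *Shh* and *Crym*, the 4 letter C libraries lay wholly below the other 4, against 5.69% of all genes. The contrast was fitted with genotype as a term, and each letter holds equal numbers of both genotypes. It is not balanced for *Xist*: the only libraries with it, controls C1 and C6, are both in letter C. Letter and *Xist* are therefore partly confounded. In the plot of differences every blue square lies to the left of its grey circle, with bars that do not meet for *Krt25*, *Krt27*, *Krt71* and *Krt75* among the inner root sheath and companion layer keratins and that overlap for the other 4.

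The count of calls by letter varied with the fit. The F test over the 3 letters called 0 of the 30 (0.0532% of all genes), although 26 of the 30 had an unadjusted p under 0.05 in it, against 3168 of all 13147. The contrast called 0 of the 30 without control replicate A1, RoraEKO replicate B4, RoraEKO replicate C3 or control replicate C6, 2 without RoraEKO replicate C2, 0 without the genotype term and 0 when the *Xist* level was added as a term. Over these and the other alternatives the log2 differences kept their sign in 29 of the 30 genes, with *Sox9* as the exception, and ran from -2.19 to -1.32 for *Krt27*, from -2.20 to -1.28 for *Krt71*, from -2.71 to -1.61 for *Shh* (tested in 18 of the 19) and from -2.08 to -1.16 for *Crym*. Without A1, B4, C3 or C6 at most 4 genes of the whole table were called lower in letter C. The 2 called without RoraEKO replicate C2 stood against 0.226% of all genes, and 0% were called without the genotype term or with *Xist*. DESeq2 called 20 of the 30 in the contrast, against 4.95% of all genes, and edgeR's likelihood ratio test 24, against 5.35%.

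*Krt71* was at 12530 ± 3967 CPM in letters A and B and at 3547 ± 1396 CPM in letter C (SD, n = 4 each), a log2 difference of -1.87 with a standard error of 0.368 and an adjusted p of 0.0315 in edgeR's quasi-likelihood test. *Krt27* differed by the same amount, -1.87, from 5369 ± 1253 to 1541 ± 613 CPM. The median difference was -1.54 for the inner root sheath and companion layer group, -1.22 for type I and -0.88 for type II hair keratins. The groups overlapped, with *Krt85* at -1.79 and *Krt82* at -1.68 among the hair keratins and *Krt73* at -1.10 in the first group, and the difference between them was not tested. *Krt34* at -0.26 (adjusted p = 0.531) and *Krt86* at -0.39 (adjusted p = 0.3) in the same edgeR test were the smallest of the keratins.

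By letter, 2 of the 4 tested transcription factors and 2 of the 3 signal and shaft genes were called, against 2.4% of all genes called lower in letter C. *Foxn1*, the factor lost in nude mice, was at 141.1, 61.0, 51.5 and 34.9 CPM in controls A1, B1, C1 and C6 and at 107.2, 86.4, 38.98 and 63.7 CPM in RoraEKO A3, B4, C2 and C3. Its log2 difference by genotype was 0.04, and it was lower in letter C by edgeR's test, with a log2 difference of -1.02 (adjusted p = 0.0446). *Dlx3*, a homeobox factor of the differentiating shaft and of interfollicular epidermis, was at 518.6, 286, 221.2 and 179.2 CPM in controls and 368.7, 313.2, 231.6 and 229.6 CPM in RoraEKO libraries, with letter C wholly below. *Dlx3* in the 4 letter C libraries spread little, 215 ± 24.6 CPM (SD).

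*Hoxc13*, a homeobox factor that acts on hair keratin genes, was at 78.1 CPM in A1 and at 10.7 and 11.4 CPM in C6 and C2, with the other 5 libraries between 23.96 and 39.8 CPM. *Msx2*, a homeobox factor of the matrix, was at 127.4 CPM in A1, at 16.6 to 60.4 CPM in the others and lowest in C6. Neither passed the cutoffs by letter (adjusted p = 0.0897 and 0.065 in edgeR's test).

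*Shh*, the signal that drives follicle growth, was low in every library, from 8 counts in the lowest to 135 in the highest. It was at 5.14, 2.95, 0.710 and 0.300 CPM in controls A1, B1, C1 and C6 and at 4.37, 2.67, 1.49 and 0.699 CPM in RoraEKO A3, B4, C2 and C3, which gave the largest letter difference of the 30 genes, -2.26 with a standard error of 0.466. *Crym* was at 523, 200.4, 90.6 and 49.2 CPM in controls and at 300.8, 261.1, 139.1 and 112.6 CPM in RoraEKO libraries, so it too separated letter C from the rest. *Selenbp1*, a selenium-binding protein, was at 10.9 to 26.0 CPM in controls and 6.31 to 15.9 CPM in RoraEKO libraries, with a log2 difference by genotype of -0.61 (standard error 0.396, adjusted p = 0.394 in edgeR's test).

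Among the stem and progenitor genes, *Sox9*, a factor of the outer root sheath and its stem cells, was at 4.21 to 14.5 CPM in controls and 6.07 to 10.2 CPM in RoraEKO libraries. Its letter difference was -0.37, the smallest of the genes other than keratins. *Lhx2*, a LIM homeobox factor of follicle stem cells, was at 0.976 to 5.22 CPM in controls and 0.626 to 3.13 CPM in RoraEKO libraries, with 13 counts in its lowest library. *Lgr5* was at 0 in all 4 RoraEKO libraries and at 0.0381 to 0.164 CPM in the controls, where 3 counts come to between 0.113 and 0.196 CPM depending on the library, and no difference is read from such counts.

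**Figure D3:**
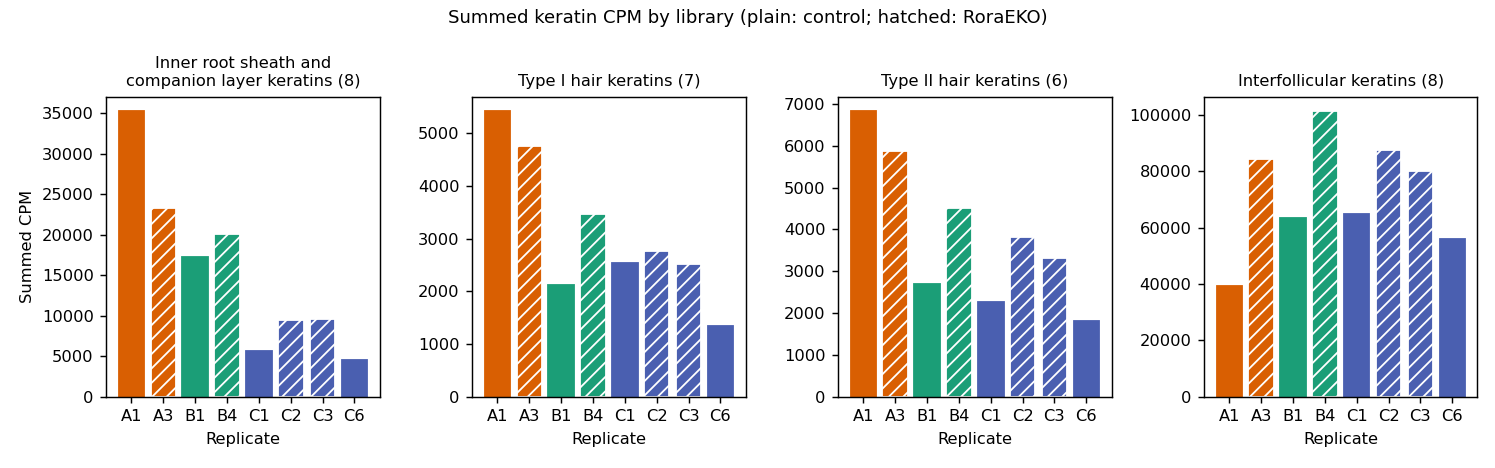
Summed CPM of 8 inner root sheath and companion layer keratins, 7 type I hair keratins, 6 type II hair keratins and 8 keratins of the interfollicular epidermis in each library (linear axes from 0; plain bars control, hatched bars RoraEKO; colour is the title letter). The inner root sheath sum is at most 9577 CPM in letter C libraries and at least 17210 CPM in the others, and the hair keratin sums overlap. The interfollicular sum has nearly the same mean in both sets, with an SD of 26830 CPM in letters A and B and 14230 CPM in letter C.

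Summed by class, the 8 inner root sheath and companion layer keratins added up to 23960 ± 7931 CPM in letters A and B and 7306 ± 2584 CPM in letter C (SD, n = 4 each), and no letter C library reached the lowest of the others. The 7 type I hair keratins gave a ratio of 1.72 between the 2 means, from 3943 ± 1462 to 2288 ± 644 CPM, and the 6 type II hair keratins 1.78, from 4982 ± 1797 to 2805 ± 925 CPM. Within a library, inner root sheath and companion layer keratins were 2.88 (A1), 2.18 (A3), 3.58 (B1) and 2.52 (B4) times the summed hair keratins in letters A and B, and 1.17 (C1), 1.44 (C2), 1.64 (C3) and 1.45 (C6) times in letter C. This ratio does not depend on the scaling between libraries, and the 2 sets of libraries did not overlap in it. It rests on the most abundant genes, *Krt71*, *Krt27* and *Krt25* in the first sum. The hair keratins *Krt85*, *Krt82* and *Krt35*, with log2 differences by letter of -1.79, -1.68 and -1.62, add little to the other. Abundant *Krt34* and *Krt86* were at -0.26 and -0.39. By genotype the inner root sheath and companion layer sum was 15670 ± 14260 CPM in control and 15590 ± 7138 CPM in RoraEKO libraries.

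In bulk RNA, fewer follicle cells in a library and less RNA of these genes in each cell cannot be told apart. Marker lists of other cells were summed beside the hair genes. Among keratins of the interfollicular epidermis, *Krt1* and *Krt10* were highest, then *Krt80*, and the sum is mostly the first 2. It was 72170 ± 26830 CPM in letters A and B and 72160 ± 14230 CPM in letter C (SD, n = 4 each). By letter 4 of the 7 tested were lower in letter C. None passed the cutoffs, against 2.4% of all genes called lower. *Krt80* lay wholly lower in letter C, at a log2 difference of -0.56. *Krt14* was at -1.05, *Krt5* at -0.70, *Krt1* at 0.15 and *Krt78* at 0.23. By genotype the interfollicular sum was 55990 ± 11800 CPM in control and 88340 ± 9274 CPM in RoraEKO libraries (SD, n = 4 each), and *Krt77* was called lower. Control A1, the highest library for the hair genes, was the lowest of the 8 in that sum, at 39300 CPM. The basal keratinocyte list of 5 genes ran from 241.8 to 1142 CPM in letters A and B and from 151.3 to 470.3 CPM in letter C, a ratio of 1.96 between the means. All 5 had lower values in letter C, with a median log2 difference of -0.94, and 0 were called, against the same 2.4% of all genes. Of 8 sebocyte markers (*Scd1*, *Far2* and *Awat1* highest), all 8 were lower in letter C and 0 were called, against that same share. Their sums were 165 to 337.4 CPM in letters A and B and 76.5 to 195.1 CPM in letter C.

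Of 8 melanocyte markers (*Mitf*, *Dct* and *Pmel* highest), 7 were lower in letter C and *Mitf* was called, against 2.4% of all genes. Sums were 93.9 to 145.2 CPM in letters A and B and 52.2 to 87.4 CPM in letter C. Much of that was *Mitf*, at 49.2 to 95.8 and 25.3 to 46.0 CPM. *Dct*, *Pmel*, *Mlana* and *Sox10* were highest in C1, with *Pmel* at a log2 difference of -0.04 and *Sox10* at 0.59. Immune markers went the other way: all 4 were higher in letter C, *Ptprc* past the cutoffs, against 166 of all 13147 genes called higher. Their sums were 6.86 to 9.92 CPM in letters A and B and 12.8 to 19.3 CPM in letter C. Fibroblast markers (*Postn* highest) summed to 17.2 to 44.3 CPM in letters A and B and 16.8 to 36.9 CPM in letter C. Apart from *Postn* at a log2 difference of -0.21, the tested members were at higher values in letter C, *Col1a1* at 0.64, *Col3a1* at 1.31, *Col6a3* at 1.48 and *Col1a2* at 1.63, and 0 were called by letter. By genotype *Postn* was called higher in RoraEKO libraries. Endothelial markers stayed at 3.13 CPM or less and skeletal muscle markers at 4.00 CPM or less in every library. Of the 3 sweat gland and nail markers *Krt6a* was called higher by genotype, and *Krt9* was at 0.228 CPM or less. The part of these cell types in the hair gene differences was not tested.

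Other genes of the follicle epithelium numbered 39, of which 34 were tested. By genotype 1 of the 34 was called, against the 5.51% of all genes: *Gata3*, a factor of the inner root sheath, at a log2 difference of -0.77 (adjusted p = 0.0493 in edgeR's test). By letter 31 of the 34 were lower in letter C and 9 were called, against the 2.4% of all genes: *Tchh* and *Tchhl1*, trichohyalin and its relative, *Padi3*, the deiminase that modifies trichohyalin, and S100a3, *Vsig8*, *Elf5*, *Bambi*, *Dsg4* and *Cux1*. *Tchh*, the highest of the list ahead of *Tchhl1* and *Psors1c2*, was at 9617 to 16040 CPM in letters A and B and 3645 to 6784 CPM in letter C. The list's median log2 difference by letter was -0.74. Of 14 dermal papilla genes 3 were tested, *Bmp4*, *Wnt5a* and *Trps1*, and 0 were called. *Hey1*, the next in level, and the others were too low for the filter.

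Keratin-associated proteins fill the space between keratin filaments in the shaft. Their summed level, with *Krtap7-1*, *Krtap1-5* and *Krtap8-1* highest, was 48980 ± 15620 CPM in letters A and B and 38620 ± 15040 CPM in letter C (SD, n = 4 each), a ratio of 1.27. Of 108 tested, 94 had lower values in letter C, with a median log2 difference of -0.56 and a lowest of -2.30, and 28 were called lower, against the 2.4% of all genes given above, in the families *Krtap5*, *Krtap10*, *Krtap12*, *Krtap16-1*, *Krtap17-1* and *Krtap26-1*. By genotype 5 of the 108 were called, against the 5.51% of all genes: *Krtap5-2* lower and *Krtap13*, *Krtap13-20*, *Krtap13-21* and *Krtap13-23* higher. No keratin of the shaft or inner root sheath was called beside them.

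**Figure D4:**
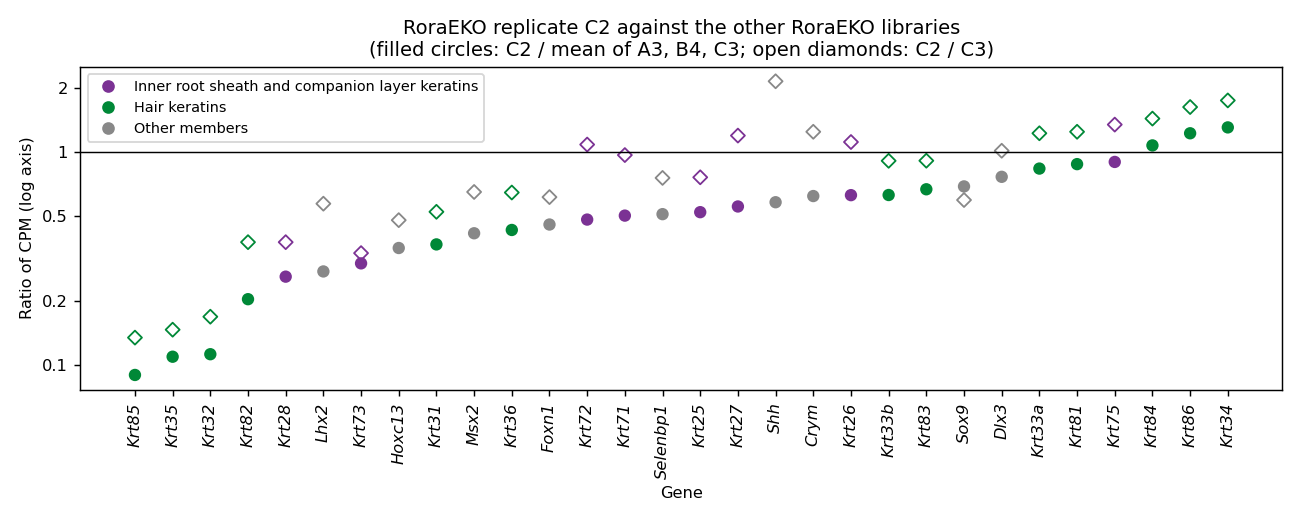
Level of each tested hair gene in RoraEKO replicate C2 divided by the mean of RoraEKO replicates A3, B4 and C3 (filled circles) and by C3 alone, of the same title letter (open diamonds), on a log axis, with genes sorted by the first ratio and coloured by class. Krt85 is lowest in both, at 0.0895 and 0.134, and the highest is Krt34 at 1.30 in the first and Shh at 2.14 in the second.

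RoraEKO replicate C2 was low for some hair keratins and not for others, as the plot of C2 against the other RoraEKO libraries shows. Its level divided by the mean of the other 3 RoraEKO libraries, of which A3 and B4 have other title letters, was below 0.5 in 13 of the 30 genes and above 1 in 3. Divided by C3, the RoraEKO library of the same letter, it was below 0.5 in 7 and above 1 in 12. Against the mean of the 3, *Krt85* at 0.0895, *Krt35* at 0.109, *Krt32* at 0.112 and *Krt82* at 0.203 were lowest, keratins of the matrix and cuticle, while *Krt84* at 1.07, *Krt86* at 1.22 and *Krt34* at 1.30 were highest. Against C3, *Krt85* at 0.134, *Krt35* at 0.146 and *Krt32* at 0.168 were again lowest, and *Shh* at 2.14, *Krt34* at 1.74 and *Krt86* at 1.62 were highest. The inner root sheath and companion layer keratins ran from 0.259 to 0.895 against the mean of the 3 and from 0.334 to 1.34 against C3. The ratio of *Krt85* to *Krt86*, in CPM, was 0.0217 in C2 and 0.151 to 0.609 in the other 7 libraries. The ratio of *Krt35* to *Krt34* was 0.00291 in C2 and 0.0185 to 0.0751 in the others. Both pairs join the lowest genes of C2 against the mean of the 3 with the highest. Such pairs set C2 apart by selection, and their ratios are no separate evidence. *Hoxc13* and *Lhx2* in C2 were at 0.353 and 0.274 of the mean of the other 3 RoraEKO libraries and at 0.477 and 0.57 of C3. As 1 library, C2 has no replicate of this profile, and no test was made of it.

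Gene models on the opposite strand overlap *Krt75*, *Krt32*, *Hoxc13*, *Msx2*, *Foxe1*, *Shh*, *Selenbp1*, *Lgr5*, *Sox9* and *Lhx2*, and whether the counting used strand is not given in the sources used here, so low values of these genes may include reads of the partner.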

How the data were processed

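Epidermis was peeled from heat-treated back skin, and polyA RNA libraries were made with a stranded kit and sequenced, as the study's methods describe. The authors aligned reads to GRCm39 with STAR 2.5.3a and counted them with RSEM, and deposited the gene-level expected counts, which are estimated and not normalized. The annotation release and the strand setting are not given in the sources used here. Expected counts were rounded here before any fit, and 54749 of 55416 gene identifiers were matched to GENCODE M39 symbols.

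Genes were filtered with filterByExpr and scaled by TMM in edgeR 4.0.16 (R 4.3.3). The quasi-likelihood test (legacy form) compared 4 RoraEKO with 4 control libraries, 3 title letters with genotype as a term, letter C with letters A and B, and their interaction with genotype. Adjusted p is Benjamini-Hochberg over 13147 genes; calls needed an adjusted p under 0.05 and, except for the F test and the interaction, a fold over 1.5. The step was tested on simulated data. Standard errors are of log2 CPM (prior count 2) between libraries. Alternatives were RLE or library-size scaling, the newer quasi-likelihood form, DESeq2 1.42.0, the likelihood ratio test, other filters and cutoffs, a letter block, no genotype term, *Xist* as a covariate, each library left out and, chosen after seeing the data, A1 left out with the letter block or *Xist*.

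All 32 hair genes are named, with the 3 highest of each follicle, keratin and *Krtap* list and those called (*Krtap* genes called by letter as families). The genes, lists and tests were chosen with earlier results of these data known. Transcript identity came from blastn 2.17.0. Counting error is small at these depths except where counts are stated, and intervals cover libraries only.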

Additional observations from a re-analysis of the deposited data

Results flagged for a closer look

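Among the 4 controls, replicate A1 lay far above the others for 11 hair genes, by Dixon's criterion at the 95% level over 60 groups tested (each of the 30 genes in each genotype). Chance flags about 1 in 20 groups. The values in A1 were 448 CPM for *Krt28*, 1410 for *Krt72*, 353 for *Krt73*, 236 for *Krt32*, 763 for *Krt33b*, 71.3 for *Krt35*, 1880 for *Krt81*, 159 for *Krt82*, 2460 for *Krt83*, 746 for *Krt85* and 1230 CPM for *Krt86*. All 11 flags fell on this 1 library and 0 on a RoraEKO library, and genes of 1 library are not independent of each other.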

How the results depend on the processing

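By genotype, 0 hair genes were called under every alternative that kept all libraries, and 0 to 4 with a library left out. Without A1 the count was 3 with the letter block (7.41% of all genes) and 0 with *Xist* as a covariate (0.922%), where *Krt33b*, *Krt81*, *Krt83* and *Krt86* were at log2 differences of 0.98, 0.86, 0.82 and 0.92. Over all genes it was 460 with *Xist* as a covariate and 457 to 896 with a library left out. The F test by letter called 1 hair gene with RLE scaling (0.57% of all genes), 2 with library size alone (0.806%), 3 with the newer quasi-likelihood form (0.943%), 22 with DESeq2 (10.6%), 25 with the likelihood ratio test (13.0%), 28 with all genes of at least 1 count (10.8%), 7 with at least 10 counts in every library (1.94%), 16 at an adjusted p under 0.1 (8.49%) and 0 to 10 with a library left out (0 to 3.33%). Lower in letter C were 6 with library size alone (1.59% of all genes), 20 with DESeq2 (4.95%), 24 with the likelihood ratio test (5.35%), 27 with at least 1 count (4.36%), 21 at an adjusted p under 0.1 (4.97%), 0 with no genotype term (0%), 0 with *Xist* as a covariate (0%) and 0 to 16 with a library left out (0 to 4.23%). The interaction was 0 under each. With 1 library left in a letter it is assumed to vary like the rest. Why the letter calls follow the test and filter was not tested.

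Correlations of deviations from the genotype mean between same-letter libraries were 0.483 in letter A, 0.05 in letter B and 0.131 to 0.436 in letter C, and -0.215 to -0.517 between letters A and C. Letter B did not pass 0.1, so the letter was not taken as a pairing. With the title letter as replicate block 0 hair genes and 999 genes in all were called by genotype.

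Genotype directions, as log2 differences, turned for genes not called with all libraries (*Krt33b* and *Krt83* among them were called without A1). With RLE scaling *Krt73* was 0.006 and *Sox9* 0.022. With library size alone *Krt71* was -0.008, *Krt75* -0.065, *Foxn1* -0.007 and *Shh* -0.062. With the newer quasi-likelihood form *Shh* was -0.003. With DESeq2 *Krt73* was 0.007 and *Sox9* 0.024. With all genes of at least 1 count *Krt73* was 0.039 and *Sox9* 0.048. With the letter block *Krt25* was 0.26, *Krt73* 0.31, *Krt35* 0.036, *Krt85* 0.074, *Dlx3* 0.013, *Crym* 0.33 and *Sox9* 0.10. With *Xist* as a covariate *Krt27* was -0.66, *Krt71* -0.74, *Krt75* -0.55, *Krt31* -0.48, *Krt32* -0.49, *Krt33a* -0.19, *Krt33b* -0.062, *Krt83* -0.19, *Krt84* -0.39, *Foxn1* -0.46 and *Shh* -0.845. With a library left out the ranges were -0.42 to 0.73 for *Krt25*, -0.89 to 0.60 for *Krt26*, -1.15 to 0.49 for *Krt28*, -0.94 to 0.89 for *Krt72*, -0.30 to 0.93 for *Krt73*, -0.60 to 0.83 for *Krt35*, -0.40 to 0.39 for *Krt36*, -0.55 to 0.915 for *Krt85*, -0.73 to 0.20 for *Hoxc13*, -0.60 to 0.57 for *Msx2*, -0.23 to 0.32 for *Dlx3*, -0.38 to 0.84 for *Crym*, -0.225 to 0.42 for *Sox9*, -0.68 to 0.29 for *Lhx2*, -0.19 to 0.80 for *Krt27*, -0.26 to 0.84 for *Krt71*, -0.25 to 0.32 for *Krt75*, -0.21 to 0.89 for *Krt31*, -0.33 to 1.63 for *Krt32*, -0.097 to 0.36 for *Krt84*, -0.16 to 0.59 for *Foxn1*, -0.42 to 0.83 for *Shh* and -0.069 to 0.56 for *Krt33a*. The letter difference of *Sox9* ran from -0.69 to 0.07.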
